A study of Mus musculus with 12 samples.

Results

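The genes described here are 9 components of bone morphogenetic protein (BMP) signalling. They are the ligands Bmp2, Bmp4, Bmp6 and Bmp7, the antagonists Nog, Grem1 and Chrd, and the response genes Smad6 and Id1. They were found by exact match of their symbols among 47069 genes in a count table of tibia shaft RNA, and all 9 were present. The match used the symbols and no measured value. Over the 12 libraries, a single gene of the 9 had between 57 and 1110 counts per mouse, and all 9 passed the filter on low counts in each of the 3 comparisons.

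RNA came from tibia shafts of male mice aged 8 weeks, after the bone marrow had been flushed out, with 1 library per mouse and n = 4 mice per group. Jrt;Sost-het mice and Jrt;Sost-ko mice, together called the Jrt groups, carry 1 Col1a1 Jrt allele each, a dominant germline splice site mutation of the main collagen chain of bone that gives a mouse model of severe osteogenesis imperfecta. Jrt;Sost-ko mice are in addition homozygous for a germline null allele of Sost. Both Jrt groups were bred in the same colony, which goes back to a crossover between the linked Col1a1 and Sost loci. The labels describe the Jrt;Sost-het mice by Col1a1Jrt/+ alone, and the study's methods add that they are heterozygous for the Sost null allele, so Jrt mice with normal Sost were not part of the comparison. WT mice have normal Col1a1 and Sost and were bred in a parallel colony of the same mixed FVB and C57BL6 background, so that genotype and colony cannot be told apart in comparisons with WT. Mice are numbered 1 to 4 within a group in the order of their records, and these numbers pair no mice between groups.

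BMPs are secreted dimers of the TGF-beta superfamily. They bring type I and type II receptor kinases together, the receptors phosphorylate SMAD proteins, and these enter the nucleus with their common partner to switch on target genes. Id1, which blocks basic helix-loop-helix factors, and Smad6, an inhibitory SMAD that feeds back on the receptors, are among the most direct of these targets. Noggin, gremlin and chordin bind the ligands outside the cell and keep them from their receptors. BMPs were named for their ability to induce bone, where they drive precursor cells towards the osteoblast. Sclerostin, the product of Sost, is secreted by osteocytes, inhibits Wnt signalling and belongs to the same family of secreted antagonists as gremlin.

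The libraries held between 24366061 and 44418863 counts, and levels are given as CPM, the count scaled to library size after TMM normalization over the 12 libraries. Sost stood at 53.3 ± 18.8 CPM in WT, 39.98 ± 20.4 CPM in Jrt;Sost-het and 0.672 ± 0.421 CPM in Jrt;Sost-ko mice (mean ± SD, n = 4), so the 4 libraries labelled Jrt;Sost-ko matched their label. Its log2 fold change between the Jrt groups was -5.87 with an adjusted p of 0.013 in edgeR, and this adjusted p was 0.117, 0.138 and 0.0805 without Jrt;Sost-ko mouse 1, 3 or 4, respectively. Col1a1 averaged 14968 ± 6642 CPM in WT, 18231 ± 4956 CPM in Jrt;Sost-het and 23890 ± 5758 CPM in Jrt;Sost-ko mice, and gene counts do not show the Jrt splice change. All 10 osteoblast and 8 osteocyte markers were detected in every mouse, as the tissue label implies. Summed neutrophil markers lay between 16014 and 29844 CPM and summed erythroid markers between 13944 and 27008 CPM. Transcripts of blood cells were thus present in every mouse, although the marrow had been flushed out. Marrow stroma markers summed to 1307 to 2096 CPM. Chondrocyte markers summed to 87.2 to 3705 CPM, with 2931 CPM in WT mouse 4. The part of these markers in the levels of the BMP genes was not tested. Summed skeletal muscle markers lay between 38.6 and 33337 CPM. Summed epidermal markers were 117 CPM in WT mouse 3 and 540 CPM in WT mouse 4, and between 2.05 and 3.98 CPM in the other 10 mice. Values without these WT mice are given below beside each comparison with WT.

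Relative to their length, the 9 genes spanned a wide range of levels, with Id1 at the top and Chrd at the bottom. Levels between genes are compared as CPM per kb of exons, averaged over the 12 mice. Id1 stood apart at 19.2 ± 4.02 CPM per kb (SD, n = 12) and was above every other gene of the set in all 12 mice. Bmp4 at 6.11 ± 0.635, Smad6 at 5.74 ± 1.15, Grem1 at 5.43 ± 1.15 and Bmp6 at 5.25 ± 0.586 CPM per kb followed. Neighbours within this group could not be ordered, because Bmp4 was above Smad6, Smad6 above Grem1 and Grem1 above Bmp6 in only 7 of 12 mice each. Bmp6 was above Bmp2, at 3.66 ± 0.909 CPM per kb, in 11 of 12 mice, and Bmp2 was above Nog in all 12. Nog at 2.07 ± 0.659 and Bmp7 at 2.01 ± 0.478 CPM per kb changed places in 6 of 12 mice. Chrd was the lowest at 0.677 ± 0.184 CPM per kb, below Bmp7 in all 12 mice. Summed over the 3 antagonists and divided by the sum over the 4 ligands, these levels gave a ratio of 0.393 to 0.526 in WT mice, 0.340 to 0.589 in Jrt;Sost-het mice and 0.397 to 0.550 in Jrt;Sost-ko mice, so the balance of transcripts overlapped among the 3 groups.

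**Figure D1:**
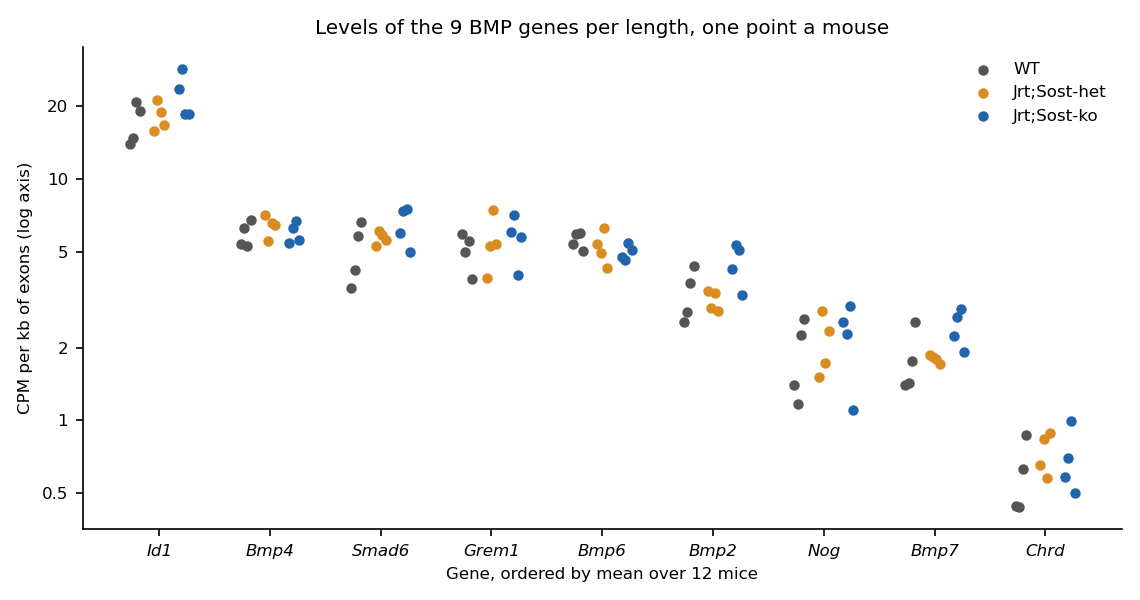
Levels of the 9 BMP genes in CPM per kb of exons on a log axis, with 1 point per mouse coloured by group and genes ordered by their mean over 12 mice. Id1 lies above the other genes in every mouse and Chrd lies at the bottom, with a mean of 0.677 CPM per kb.

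The comparison of the Jrt groups, Jrt;Sost-ko relative to Jrt;Sost-het, addresses what loss of Sost does to the bone transcriptome on the Jrt background. None of the 9 BMP genes passed the test in it. The ligands Bmp2 and Bmp7 had the largest differences, at 1.44-fold and 1.35-fold of the Jrt;Sost-het level, while the ligands Bmp4 and Bmp6 and all 3 antagonists had fold differences between 0.939 and 1.06. The response genes Id1 and Smad6 stood at 1.23-fold and 1.13-fold. At an edgeR adjusted p under 0.05, 0 of 9 were called, against 0.00597% of the 16739 genes tested, that is Sost alone. DESeq2 called 0 of 9 as well, against 18 of 17272 genes. At an unadjusted p under 0.05 there were 2 of 9, Bmp2 and Bmp7, against 5.02% of all genes. The log2 fold change was above 0 in 6 of 9, against 50.4% of all genes, with a median of 0.08 against 0.00. With 4 mice against 4, an exact two-sided permutation test cannot give a p below 0.0286.

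Bmp2 (ENSMUSG00000027358), a ligand with strong bone-inducing activity, spans positions 133552159 to 133562885 of chromosome 2, plus strand, in the GRCm38 build. It was at 15.0, 18.9, 18.1 and 11.8 CPM in Jrt;Sost-ko mice 1 to 4, at 12.2, 10.4, 11.9 and 10.1 CPM in Jrt;Sost-het mice, and at 9.08, 10.03, 13.2 and 15.6 CPM in WT mice. Jrt;Sost-ko mice 1, 2 and 3 were above every Jrt;Sost-het mouse, and Jrt;Sost-ko mouse 4 fell among them. The means were 15.96 ± 3.26 CPM (SD, n = 4) in Jrt;Sost-ko and 11.1 ± 1.07 CPM in Jrt;Sost-het mice. The log2 fold change was 0.52 with a standard error of 0.155, an unadjusted edgeR p of 0.00832, the rank of 111 among 16739 genes, and an adjusted p of 0.901. The exact permutation p was 0.0857. In bulk RNA, more transcript per cell and more cells that make it cannot be told apart.

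Bmp7 (ENSMUSG00000008999), a ligand of the same superfamily with known roles in bone, kidney and eye, spans 172868012 to 172940321 of chromosome 2, minus strand. Its levels were 8.96, 10.8, 11.6 and 7.73 CPM in Jrt;Sost-ko mice, 7.50, 7.34, 7.21 and 6.91 CPM in Jrt;Sost-het mice, and 5.64, 5.75, 7.11 and 10.3 CPM in WT mice. It was the only one of the 9 genes for which the Jrt groups did not overlap, which 3.05% of all genes tested also showed, in either direction. The gap was narrow, between 7.73 CPM in Jrt;Sost-ko mouse 4 and 7.50 CPM in Jrt;Sost-het mouse 1, and the 4 Jrt;Sost-het mice lay close together. The log2 fold change was 0.44 with a standard error of 0.139, an unadjusted edgeR p of 0.0119, the rank of 182 and an adjusted p of 0.901. The exact permutation p was 0.0286, the smallest that this number of mice allows.

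The other 2 ligands had nearly equal means in the Jrt groups. Bmp4 (ENSMUSG00000021835), needed early in development for mesoderm formation, spans 46383520 to 46390669 of chromosome 14, minus strand. It was at 12.2, 14.2, 15.1 and 12.5 CPM in Jrt;Sost-ko mice, 15.99, 12.4, 14.8 and 14.5 CPM in Jrt;Sost-het mice, and 12.1, 14.0, 11.9 and 15.2 CPM in WT mice. The Jrt groups overlapped, and the fold difference of 0.939 had a 95% interval of 0.792 to 1.11. Bmp6 (ENSMUSG00000039004), best known as the ligand by which iron load controls hepcidin in the liver, spans 38345107 to 38500302 of chromosome 13, plus strand. It was at 18.6, 17.98, 21.2 and 19.8 CPM in Jrt;Sost-ko mice, 20.96, 19.3, 24.4 and 16.7 CPM in Jrt;Sost-het mice, and 21.1, 23.1, 23.2 and 19.6 CPM in WT mice. Its fold difference was 0.955 with a 95% interval of 0.795 to 1.15.

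**Figure D2:**
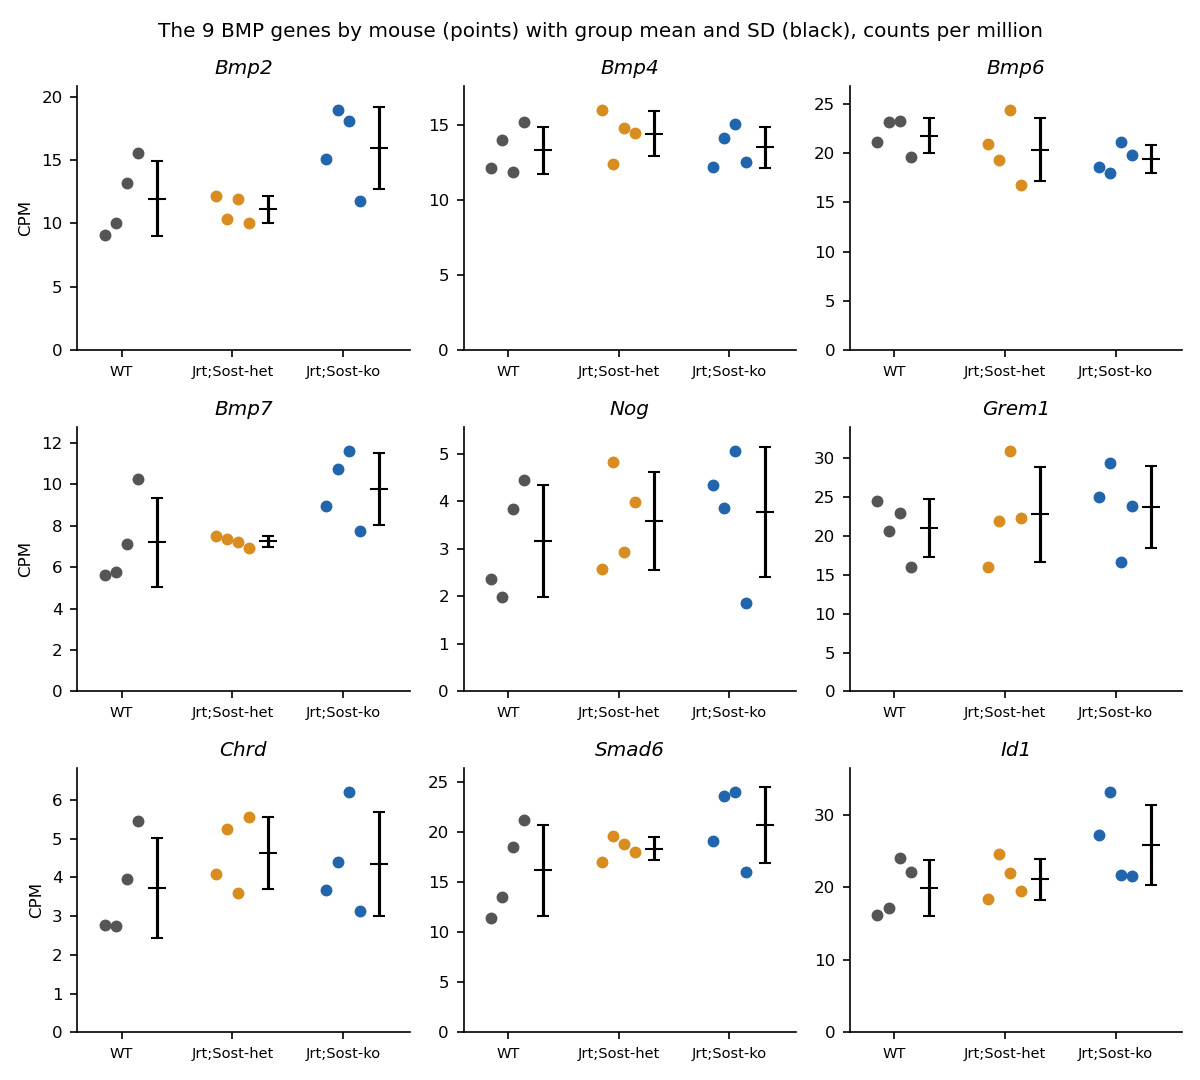
CPM of the 9 BMP genes in each of the 12 mice, with 1 point per mouse and the group mean and SD in black beside the points (n = 4). All axes start at 0. For Bmp7 the 4 Jrt;Sost-ko points lie above the 4 Jrt;Sost-het points, and for the other 8 genes these groups overlap.

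Both ligands with the larger differences kept step with each other from mouse to mouse. The count of Bmp2 over that of Bmp7 in the same library stayed between 1.41 and 1.85 in all 12 mice. The count of Bmp2 over that of Bmp4 was 1.23, 1.34, 1.20 and 0.937 in Jrt;Sost-ko mice and 0.761, 0.837, 0.807 and 0.694 in Jrt;Sost-het mice. These groups did not overlap, nor did they for Bmp7 over Bmp4, at 0.616 to 0.770 in Jrt;Sost-ko and 0.469 to 0.591 in Jrt;Sost-het mice. WT mice overlapped both Jrt groups, at 0.715 to 1.11 for Bmp2 over Bmp4 and 0.410 to 0.676 for Bmp7 over Bmp4. With Bmp6 as the denominator the Jrt groups overlapped, at 0.594 to 1.05 against 0.490 to 0.602 for Bmp2. The ratios were chosen after the values were seen and carry no test.

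The summed level of the 10 osteoblast markers, among them Col1a1, Bglap, Ibsp and Sp7, was 50069 to 80322 CPM in Jrt;Sost-ko mice, 41698 to 66218 CPM in Jrt;Sost-het mice and 27310 to 68550 CPM in WT mice. Between the Jrt groups, 9 of these 10 markers had a log2 fold change above 0, against 50.4% of all genes, with a median of 0.27. None was called, against 0.00597% of all genes. An unadjusted edgeR p under 0.05 was found for 2 of the 10, against 5.02% of all genes. For 2 of the 10 the groups did not overlap, against 3.05% of all genes. None of the 10 was at 0 in any mouse. Per 10000 CPM of these markers, Bmp2 was at 2.25 to 2.498 CPM in Jrt;Sost-ko mice and 1.84 to 2.86 CPM in Jrt;Sost-het mice, so that the Jrt groups overlapped, and at 2.27 to 3.67 CPM in WT mice. Bmp7 on the same footing was at 1.42 to 1.54 CPM in Jrt;Sost-ko and 1.13 to 1.73 CPM in Jrt;Sost-het mice, and at 1.4987 to 2.10 CPM in WT mice. Over the 12 mice the ratio of Bmp2 to the markers ran from 1.84 to 3.67 CPM, and Bmp2 itself from 9.08 to 18.9 CPM. In Jrt;Sost-ko mice the ratio was 2.38 ± 0.104 (SD, n = 4), where Bmp2 was 15.96 ± 3.26 CPM. In Jrt;Sost-het mice the ratio was 2.20 ± 0.469, where Bmp2 was 11.1 ± 1.07 CPM. Relative to its mean the ratio was thus steadier than Bmp2 in Jrt;Sost-ko mice and less steady in Jrt;Sost-het mice. The part of the markers in the Bmp2 values was not tested. With the mean log2 CPM of the osteoblast list as a covariate, a fit added after the data were seen, the log2 fold change was 0.30 for Bmp2, 0.25 for Bmp7, 0.22 for Id1 and 0.02 for Smad6.

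**Figure D3:**
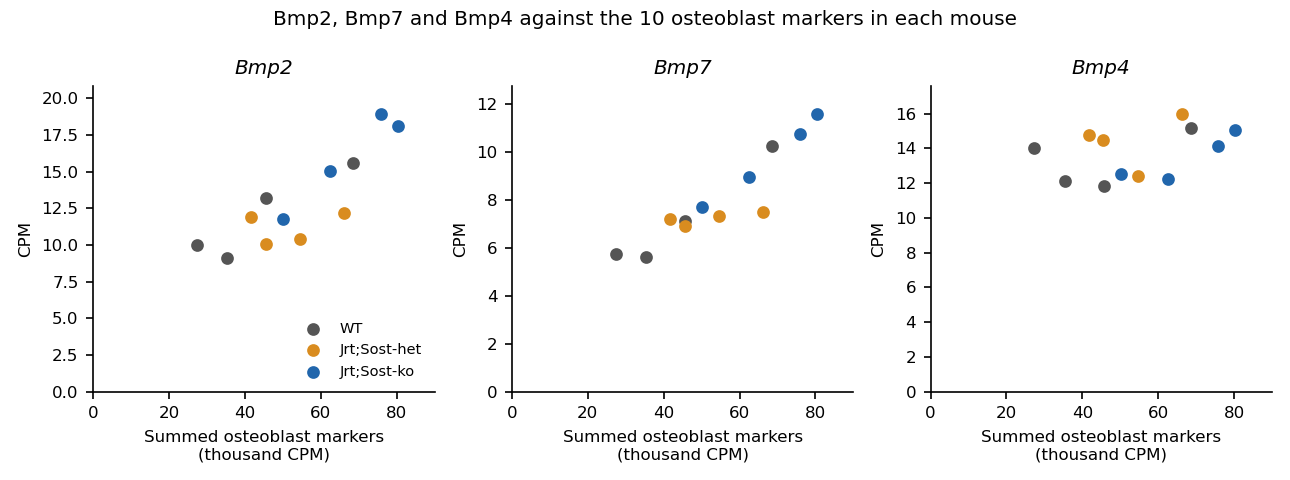
CPM of Bmp2, Bmp7 and Bmp4 (vertical axes, from 0) against the summed CPM of 10 osteoblast markers (horizontal axes), with 1 point per mouse coloured by group. Jrt;Sost-ko mice 2 and 3 are highest on both scales for Bmp2 and Bmp7, whereas Bmp4 stays between 11.9 and 15.99 CPM at every marker level.

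The 3 antagonists overlapped between the Jrt groups and were more scattered among mice than the ligands Bmp4 and Bmp6. Nog (ENSMUSG00000048616) encodes noggin, which shields the receptor contacts of the ligands, and has a single exon at 89300638 to 89302332 of chromosome 11, minus strand. This is 5.634 Mb from Col1a1, on the chromosome that carries both altered loci. Nog was at 4.34, 3.85, 5.06 and 1.87 CPM in Jrt;Sost-ko mice, 2.58, 4.84, 2.93 and 3.98 CPM in Jrt;Sost-het mice, and 2.37, 1.98, 3.84 and 4.46 CPM in WT mice. Jrt;Sost-ko mice included both the highest and the lowest value of the 12, and the fold difference of 1.06 had a 95% interval of 0.643 to 1.75. The data do not tell apart fold differences within that interval.

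Grem1 (ENSMUSG00000074934), which encodes gremlin and is known as a marker of skeletal stromal precursors, spans 113746164 to 113758646 of chromosome 2, minus strand. It was at 25.0, 29.4, 16.6 and 23.9 CPM in Jrt;Sost-ko mice, 16.1, 21.9, 30.9 and 22.3 CPM in Jrt;Sost-het mice, and 24.5, 20.6, 23.01 and 16.01 CPM in WT mice. Jrt;Sost-ko mouse 3 and WT mouse 4, which were high for most of the other genes, were low for Grem1. The fold difference between the Jrt groups was 1.04 with a 95% interval of 0.742 to 1.46. Chrd (ENSMUSG00000006958) encodes chordin, which is cleaved by the protease Bmp1 to release its ligand, and spans 20733127 to 20742384 of chromosome 16, plus strand. It was at 3.66, 4.39, 6.20 and 3.15 CPM in Jrt;Sost-ko mice, 4.09, 5.24, 3.60 and 5.57 CPM in Jrt;Sost-het mice, and 2.77, 2.74, 3.95 and 5.46 CPM in WT mice. Its fold difference was 0.945 with a 95% interval of 0.649 to 1.38.

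The RefSeq promoter table of GRCm38.p6 held 5 of the 9 genes, Bmp4, Bmp6, Grem1, Chrd and Smad6. The windows shown run from 240 bases before the start site to 10 bases after it, 5′ to 3′ on the gene's strand, and were searched on both strands for the letters GGCGCC, a GC-rich motif bound by BMP-activated SMADs, and GTCTAGAC, a palindrome bound by SMADs. Both motifs read the same on either strand and share no position with each other in these windows. Among windows of the same length of 32851 promoters, 9.77% held GGCGCC and 0.158% held GTCTAGAC. The windows of the antagonists Grem1 and Chrd held GGCGCC, in capitals here, beginning 78 bases before the start site for Grem1 (chr2:113758639-113758888, minus strand) and 203 bases before it for Chrd (chr16:20732887-20733136, plus strand). They are shown because these antagonists had a match to the GC-rich motif, while Bmp4 and Bmp6 had neither motif in the window.
Grem1: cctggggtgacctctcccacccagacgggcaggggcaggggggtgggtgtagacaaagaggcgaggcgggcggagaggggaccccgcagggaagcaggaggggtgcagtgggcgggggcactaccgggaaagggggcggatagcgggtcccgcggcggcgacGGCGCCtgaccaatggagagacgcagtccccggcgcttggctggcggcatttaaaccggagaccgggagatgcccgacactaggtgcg
Chrd: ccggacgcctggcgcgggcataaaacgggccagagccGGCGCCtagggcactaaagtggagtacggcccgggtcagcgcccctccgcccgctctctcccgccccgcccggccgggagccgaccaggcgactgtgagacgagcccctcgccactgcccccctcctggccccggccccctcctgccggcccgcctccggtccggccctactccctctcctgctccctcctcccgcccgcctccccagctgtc
A match of letters is a description of the window and carries no evidence that a SMAD binds there.

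Smad6 (ENSMUSG00000036867), the inhibitory SMAD, spans 63953076 to 64022059 of chromosome 9, minus strand. Its window (chr9:64022050-64022299, minus strand, GRCm38.p6) was the only one of the 5 to hold the rarer palindrome GTCTAGAC, in capitals here, and the match spans the start site.
Smad6: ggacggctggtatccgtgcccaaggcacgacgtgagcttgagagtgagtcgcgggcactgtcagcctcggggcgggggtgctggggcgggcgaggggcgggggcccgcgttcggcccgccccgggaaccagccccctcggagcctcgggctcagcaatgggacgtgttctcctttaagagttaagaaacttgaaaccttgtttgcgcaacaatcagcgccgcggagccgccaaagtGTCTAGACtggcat
Smad6 was at 19.1, 23.6, 24.0 and 16.1 CPM in Jrt;Sost-ko mice, 17.0, 19.6, 18.8 and 17.97 CPM in Jrt;Sost-het mice, and 11.4, 13.5, 18.5 and 21.2 CPM in WT mice. Jrt;Sost-ko mice 2 and 3 were above every Jrt;Sost-het mouse, and Jrt;Sost-ko mouse 4 was below every one. The fold difference was 1.13 with a 95% interval of 0.919 to 1.39 and an unadjusted edgeR p of 0.212. The log2 fold change of 0.18 was 0.11 without Jrt;Sost-ko mouse 2, 0.10 without mouse 3 and 0.28 without mouse 4, and 0.29 with muscle markers as a covariate.

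Id1 (ENSMUSG00000042745), the inhibitor of DNA binding that is often read as an early BMP response, spans 152736251 to 152737410 of chromosome 2, plus strand. It was at 27.3, 33.2, 21.7 and 21.6 CPM in Jrt;Sost-ko mice, 18.4, 24.6, 22.03 and 19.4 CPM in Jrt;Sost-het mice, and 16.3, 17.1, 24.1 and 22.2 CPM in WT mice. Jrt;Sost-ko mice 1 and 2 were above all other mice, while Jrt;Sost-ko mice 3 and 4 lay within the range of Jrt;Sost-het mice. The mice high for Id1 were thus not the same pair as for Smad6, of which only Jrt;Sost-ko mouse 2 was common. The log2 fold change of Id1 was 0.30 with a standard error of 0.156, a 95% interval of -0.05 to 0.65, an unadjusted edgeR p of 0.0872 and an adjusted p of 0.901. It was 0.16 without Jrt;Sost-ko mouse 2.

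**Figure D4:**
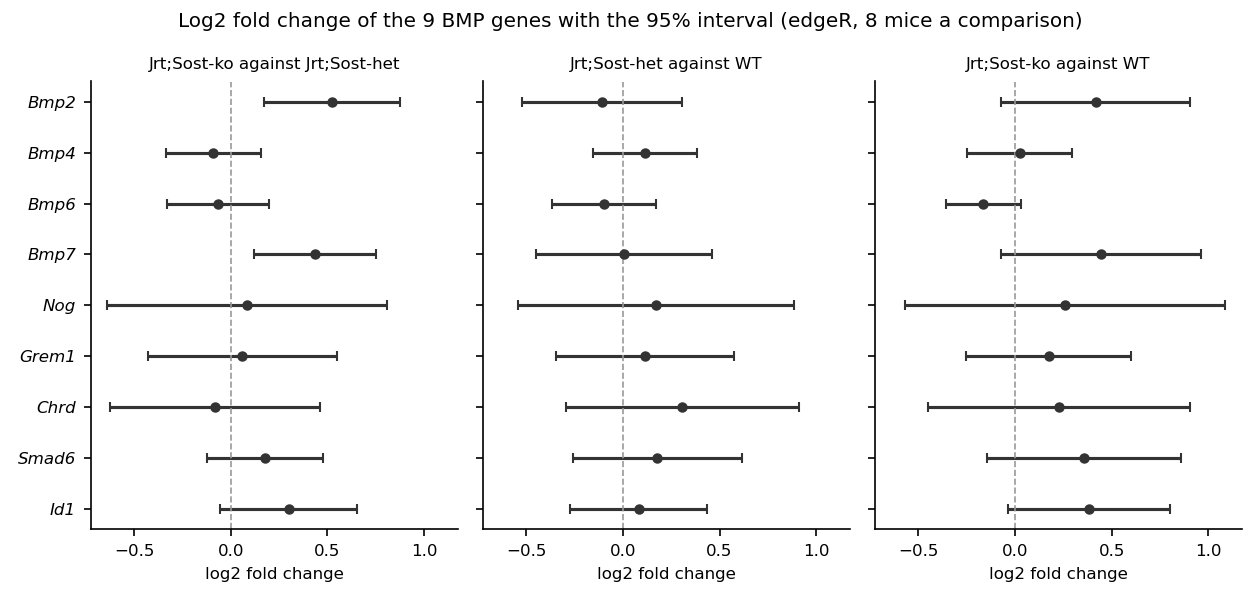
Log2 fold change of the 9 BMP genes in the 3 comparisons, with points for the edgeR estimate and bars for its 95% interval. Between the Jrt groups the intervals of Bmp2 and Bmp7 lie above 0 before adjustment over all genes, and every other interval in the 3 comparisons spans 0.

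The comparison of Jrt;Sost-het with WT mice asks what the Jrt allele, with 1 null allele of Sost, does to these transcripts. The 9 genes had small differences, and the adjusted edgeR p rounded to 1 for each. The largest was that of the antagonist Chrd, at a log2 fold change of 0.31 with a standard error of 0.264, followed by Smad6 at 0.18 and Nog at 0.17. Bmp2 was at -0.11, Bmp6 at -0.10, Bmp4 at 0.11 and Bmp7 at 0.01, with Grem1 at 0.12 and Id1 at 0.08. Of the 9 genes, 0 were called at an adjusted p under 0.05, against 0% of 16775 genes tested, and 0 had an unadjusted p under 0.05, against 2.14%. DESeq2 also called 0 of 9, against 4 of 30263 genes. No gene of the 9 had groups without overlap, against 1.5% of all genes. The log2 fold change was above 0 for 7 of 9, against 51.3% of all genes, with a median of 0.11 against 0.00. All 10 osteoblast markers were above 0 as well, with a median of 0.20.

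WT mice spread more widely than Jrt;Sost-het mice for several of the 9 genes, with the same mice at the ends. For Bmp7 the SD was 2.16 CPM in WT and 0.25 CPM in Jrt;Sost-het mice, and for Smad6 it was 4.52 and 1.13 CPM. The Bmp7 SD in Jrt;Sost-het mice lay below the counting error expected from the mean count. Ranked over the 12 mice, WT mouse 1 was among the 3 lowest for 7 of the 9 genes and WT mouse 2 for 6, whereas WT mouse 4 was among the 3 highest for 6. The summed osteoblast markers were lowest in WT mice 2 and 1, at 27310 and 35381 CPM, and stood at 68550 CPM in WT mouse 4. Leaving out WT mice 3 and 4, which held epidermal transcripts, keeps only the low WT mice 1 and 2. In that fit the log2 fold change between Jrt;Sost-het and WT mice was 0.57 for Smad6, 0.76 for Chrd, 0.72 for Nog, 0.36 for Bmp7, 0.35 for Id1 and 0.02 for Grem1. The value for Bmp2 turned from -0.11 to 0.23, and the smallest adjusted p of the 9 in edgeR was 0.114.

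In Jrt;Sost-ko against WT mice, where both altered loci and the colony differ, the log2 fold change was above 0 for 8 of the 9 genes, against 49.1% of all genes, with a median of 0.26 against -0.00. This comparison shares its mice with the other 2. Bmp7 was at 0.44 with a standard error of 0.226, Bmp2 at 0.42 with 0.214, Id1 at 0.38 with 0.183 and Smad6 at 0.36 with 0.219. Nog at 0.26, Chrd at 0.23, Grem1 at 0.17 and Bmp4 at 0.02 were smaller, and Bmp6 at -0.16 was the single ligand with a lower mean in Jrt;Sost-ko mice. None passed the test, with 0 of 9 at an adjusted p under 0.05, against 0.00583% of 17155 genes. In DESeq2 it was 0 of 9, against 18 of 21062 genes. At an unadjusted p under 0.05 there were 0 of 9, against 3.89% of all genes, and 0 of 9 had groups without overlap, against 2.36%. The smallest unadjusted edgeR p was that of Id1, at 0.0688. All 10 osteoblast markers also had a log2 fold change above 0 in this comparison, with a median of 0.47. With that list as a covariate Bmp2 was at 0.03, Bmp7 at 0.05, Id1 at 0.14 and Smad6 at -0.03. Because the markers and the genotype go together here, this fit cannot tell them apart. The part of the markers in these values was not tested. Without WT mice 3 and 4, in contrast, Bmp7 was at 0.78, Bmp2 at 0.74, Smad6 at 0.74, Id1 at 0.64, Nog at 0.79, Chrd at 0.66 and Grem1 at 0.07, and the smallest adjusted edgeR p of the 9 was 0.304. Without WT mouse 4 alone, Bmp7 was at 0.66.

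Among 52 other BMP pathway genes, from further ligands and receptors to other Id genes, none passed the test in any comparison. Of the 43 with enough counts in the Jrt groups, 0 were called by edgeR or DESeq2 and 2 had an unadjusted p under 0.05, near the 5.02% of all genes. Their log2 fold changes were above 0 for 24 and below 0 for 19, with a median of 0.02, where 50.4% of all genes were above 0. By role, 5 of 5 further ligands and 6 of 7 further response genes were above 0, while 9 of 11 receptors and co-receptors were below 0, with a median of -0.15. These ligands, the 5 of 10 with enough counts, ran from 0.02 to 0.37, and the ligands Bmp4 and Bmp6 of the 9 genes were below 0. The further inhibitors and modulators were split, with 6 above and 6 below. Acvrl1 and Eng are known as receptors of endothelial cells. The log2 fold changes of 8 of 8 endothelial markers were below 0 as well, with a median of -0.13 and summed levels of 364 to 432 CPM in Jrt;Sost-ko and 421 to 493 CPM in Jrt;Sost-het mice, and none was at 0 in any mouse. The largest differences of the receptor list were those of Hfe2 at -1.30 and Rgma at -0.73. Hfe2, the older symbol of the co-receptor Hjv and named here after its values were seen, was at 0.0655 CPM in Jrt;Sost-ko mouse 4 and 62.5 CPM in Jrt;Sost-het mouse 4, where the summed muscle markers were 38.6 and 31574 CPM. The median of the summed muscle markers was 6373 CPM in Jrt;Sost-ko and 8954 CPM in Jrt;Sost-het mice. The part of the endothelial and muscle markers in the receptor values was not tested.

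The pathway genes with the smallest p between the Jrt groups were a ligand and 2 receptor-level genes. Bmp3, an abundant BMP of bone that opposes the others, was at 59.9, 64.5, 56.3 and 44.1 CPM in Jrt;Sost-ko and 47.4, 43.9, 42.3 and 40.9 CPM in Jrt;Sost-het mice. Only Jrt;Sost-ko mouse 4 fell within the Jrt;Sost-het range, as for Bmp2. Its log2 fold change was 0.37 with a standard error of 0.113 and an unadjusted edgeR p of 0.00963. Bambi, a pseudoreceptor without a kinase that dampens the signal, was at 0.44 with a standard error of 0.152 and an unadjusted edgeR p of 0.0188. With osteoblast markers as a covariate Bmp3 was at 0.20 and Bambi at 0.17, and the part of these markers was not tested. Rgma, a BMP co-receptor, was at -0.73 with a standard error of 0.330 and an unadjusted edgeR p of 0.0561. It was at -0.39 without Jrt;Sost-het mouse 4 and at -0.35 with muscle markers as a covariate.

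In Jrt;Sost-het against WT mice 36 of 43 further pathway genes had a log2 fold change above 0, with a median of 0.07, against 51.3% of all genes. So did 10 of 10 osteoblast markers, with a median of 0.20, and 8 of 8 endothelial markers, with a median of 0.21. Of the osteocyte markers 6 of 8 were above 0, with a median of 0.07. The part of these markers in the pathway values was not tested. An unadjusted p under 0.05 was found for 1 of the 43, near the 2.14% of all genes. This was Bmper, a secreted BMP-binding protein of the chordin type, at 0.61 with an unadjusted edgeR p of 0.0467. The activin and BMP binder Fst was at 0.20 and the co-receptor Eng at 0.14, and without WT mice 3 and 4 Bmper was at 0.88, Fst at 0.28 and Eng at 0.29. In Jrt;Sost-ko against WT mice, 27 of 45 were above 0, with a median of 0.06, against 49.1% of all genes, and 2 had an unadjusted p under 0.05, against 3.89%. They were Id4, a relative of Id1, at 0.31 with an unadjusted edgeR p of 0.0181, and Bmper at 0.53 with a p of 0.0276. Bmp3 was at 0.40 in this comparison. With osteoblast markers as a covariate Bmp3 was at 0.06, Bmper at 0.23 and Id4 at 0.19, and without WT mice 3 and 4 they were at 0.69, 0.79 and 0.43.

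**Figure D5:**
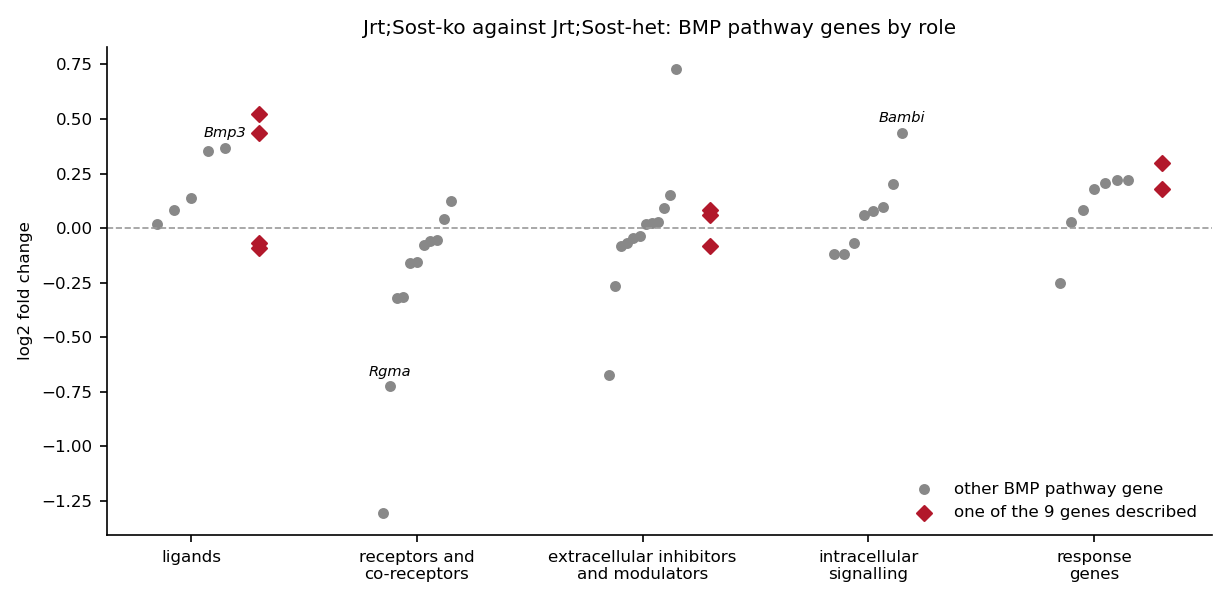
Log2 fold change between the Jrt groups, Jrt;Sost-ko relative to Jrt;Sost-het, for the further BMP pathway genes with enough counts (grey circles) and the 9 genes described (red diamonds), by role. The 5 further ligands lie between 0.02 and 0.37, 9 of 11 receptors and co-receptors lie below 0, and none of the genes passed the test.

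The order of the 12 mice also tied some of the 9 genes to each other and to other transcripts. Likeness was measured as the mean absolute difference in rank over the 12 mice, which is 0 for the same order and had a median of 4 to 4.17 over 16534 genes, depending on the gene compared. These are descriptions of shared order across libraries that also share depth and tissue composition, and they carry no test. The closest pair was Bmp2 with Bmp7, at 1 place, followed by Nog with Smad6 at 1.33 places. Of all genes, the zinc finger factor Snai2 was the nearest to Bmp2, at 0.333 places, followed by the cargo receptor Surf4 at 0.5. Tmem59 and Pgbd5 were the nearest to Bmp7, each at 0.333 places.

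For the antagonists, the limb T-box factor Tbx4 and the phospholipase Plce1 were the nearest to Nog, each at 0.833 places. The collagen V chain gene Col5a3 and the inositol phosphatase Inppl1 were the nearest to Chrd, at 0.5 and 0.667 places. Grem1 was matched most closely by the interferon gamma receptor chain Ifngr1 and the complement gene C1qb, each at 1 place. For the response genes, the collagen receptor Ddr2 and the G-protein regulator Rgs3 were the nearest to Smad6, each at 0.667 places, and Sema6b and Spock2 to Id1, at 0.667 and 1.17 places. Gmds and Chic1 were the nearest to Bmp4, at 1 and 1.17 places, and Gm9920 to Bmp6, at 1.33 places, so Bmp6 had the least close match of the 9.

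Among the 9 genes, 3 share exonic bases with a gene on the opposite strand in GENCODE M21, and the strand setting of the counting is not given in the sources used here, so that reads from those bases cannot be told apart. Bmp6 shares 224 bases with Txndc5, which had between 3350 and 6483 counts per mouse where Bmp6 had 399 to 1036. Chrd shares 239 bases with the thrombopoietin gene Thpo, which had 7 to 30 counts per mouse where Chrd had 80 to 233. Bmp4 shares 89 bases with Gm15217, which had 0 or 1 count.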

How the data were processed

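RNA-seq libraries of 12 male mice, 4 per group, were analysed. Read pairs were mapped by the authors with STAR (build GRCm38), and they deposited raw, unnormalized counts per Ensembl gene in a single matrix. The counting tool, strand setting and annotation release are not given in the sources used here. Deposited files of single mice repeat the matrix, and the authors' comparison tables hold their fold changes, p-values and normalized counts. Neither was used.

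The 3 pairwise comparisons were fitted separately, with 8 mice each, using edgeR 4.0.16 in R 4.3.3 (filterByExpr, TMM, glmQLFit, glmQLFTest), with Benjamini-Hochberg adjustment over all genes tested and a threshold of 0.05. Standard errors and intervals come from the F statistic of that test. The functions were tested on simulated data with known changes. Log2 CPM for the covariates used a prior count of 2. Exact two-sided permutation tests, which use all 70 arrangements of 8 mice, served as a second test of single genes. P-values judge a difference between groups against the spread between mice. Exon lengths and positions come from GENCODE M21.

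The 9 genes, the gene lists and the tests were chosen with earlier results of these data known. Named are the 9 genes, Sost and Col1a1, in each comparison the 3 other pathway genes with the smallest unadjusted p, the 2 genes most alike in mouse order to each of the 9 (1 of these is not reported here), tissue markers and overlapping genes. Hjv was found under its older symbol Hfe2. Alternatives were DESeq2 size factors, DESeq2 1.42.0, a joint fit of the 12 mice, omission of the filter, a minimum of 10 counts per mouse, muscle or osteoblast markers as a covariate, and leaving out mice. The labels give no batch.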

Additional observations from a re-analysis of the deposited data

Results flagged for a closer look

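For each of the 9 BMP genes and 9 ratios, the 4 mice of a group were examined for a value far from the others, and 2 of 54 such sets stood out, where chance gives about 1 in 20, or 2.7. In Jrt;Sost-het mice, the count of Bmp7 over that of Bmp4 was 0.591 in mouse 2, and the gap to the nearest mouse was 0.852 of the group's range, above Dixon's 95% critical value for 4 mice. In WT mice, Bmp7 per 10000 CPM of osteoblast markers was 2.10 CPM in mouse 2, with a gap of 0.842 of the range. No level of the 9 genes themselves stood out in this way.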

How the results depend on the processing

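No alternative called any of the 9 BMP genes or of the further pathway genes in any comparison. Of 423 log2 fold changes of the 9 genes under the alternatives, 391 kept their direction and 32 turned, in 13 of 27 gene and comparison pairs, and the cause was not tested. Bmp2 and Bmp7 kept their direction between the Jrt groups, at 0.43 to 0.64 and 0.34 to 0.53 when each mouse was left out in turn, with adjusted p as low as 0.345 and 0.479 under DESeq2. With muscle markers as a covariate, Chrd was at 0.11 and Nog at 0.40 in that comparison and Bmp7 at -0.037 in Jrt;Sost-het against WT mice. With osteoblast markers as a covariate, Nog was at -0.26 between the Jrt groups, and Bmp7 was at -0.14 in Jrt;Sost-het against WT mice. Col1a1 was at -0.0043 there, but it is itself in the marker list, so that this value carries no information about Col1a1. With the same covariate in Jrt;Sost-ko against WT mice, Bmp4 was at -0.079, Nog at -0.37, Chrd at -0.27 and Smad6 at -0.027. Without WT mice 3 and 4, Bmp2 was at 0.23 in Jrt;Sost-het against WT mice. Leaving out each mouse in turn gave ranges that cross 0 between the Jrt groups for Bmp6 (-0.15 to 0.027), Nog (-0.092 to 0.30), Grem1 (-0.080 to 0.24) and Chrd (-0.31 to 0.042). In Jrt;Sost-het against WT mice it did so for Bmp2 (-0.22 to 0.040), Bmp7 (-0.092 to 0.22), Nog (-0.0079 to 0.38), Grem1 (-0.068 to 0.25) and Id1 (-0.0027 to 0.19), and in Jrt;Sost-ko against WT mice for Bmp4 (-0.040 to 0.093) and Chrd (-0.0024 to 0.47). Over all genes, edgeR called 1, 0 and 1 genes in the 3 comparisons in the order of the text and DESeq2 called 18, 4 and 18. With osteoblast markers as a covariate edgeR called 0, 0 and 21 genes, with muscle markers 0, 0 and 1, and with no filter 1, 0 and 2. Leaving out 1 mouse gave 0 to 3, 0 and 0 to 2 genes. The adjusted p of Sost between the Jrt groups was 0.0526 with muscle and 0.258 with osteoblast markers as a covariate. Against WT mice it was 0.00895 and lay between 0.057 and 0.117 without WT mouse 1 or 3 or Jrt;Sost-ko mouse 1, 3 or 4. No paired analysis was possible because the mice carry no numbers shared between groups. There were 4 mice per group, and the lowest-count genes Nog and Chrd had 57 or more counts per mouse. Within groups, the SD between mice lay above the counting error expected from the mean count, except for Bmp7 in Jrt;Sost-het mice. What sets the width of the intervals was not tested.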
